A study of Rattus norvegicus with 12 samples.

Results

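Many protein-coding genes also carry annotated transcripts that are spliced or ended so that no protein is predicted from them. The 200 most counted of these non-coding isoforms in rat bladder were examined here, 1 for each gene. They were taken from the deposited table of non-coding transcripts, which lists 15516 transcripts, as rows assigned to a protein-coding gene and not typed as a precursor RNA. That left 1559 transcripts of 971 genes. The isoform with the highest count summed over all 12 libraries was kept for each gene, and the 200 genes with the highest sums were taken. The summed count was 10188 for the last isoform included and 10049 for the next one outside. Of the 200, 192 were typed misc_RNA with RefSeq identifiers, 187 of them predicted (XR) and 5 curated (NR). The other 8 had Ensembl identifiers, 7 typed as processed transcripts and 1 as a retained intron.

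Alternative splicing and alternative ends give most mammalian genes several transcripts, and some of these lose the reading frame, keep an intron or hold an early stop codon. Such transcripts can be kept in the nucleus or removed by nonsense-mediated decay, and splicing regulators are known to control their own levels in this way. A non-coding isoform shares most of its exons with the coding isoforms of its gene, so a short read from a shared exon belongs equally to both.

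The libraries came from bladder tissue of female Wistar rats aged 10 to 12 weeks. The injured groups had the spinal cord cut through completely, at thoracic segment 10 per the sample labels and between segments 9 and 10 per the series text, and their bladders were taken 7, 14 or 28 days later. The control group is described as normal, with no injury. Each of the 4 groups had 3 libraries, prepared from total RNA after ribosomal RNA removal and sequenced as single reads of 50 bases. The labels do not say that the libraries of a group came from separate animals, so p-values measure the spread between these libraries, which may be technical. That spread was above counting noise, with a chi-square per degree of freedom of 14.97 to 115 between libraries of a group.

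The gene table held 26275314 to 30747936 counts per library, and the 200 isoforms held 447702 to 539171. Across the gene table, all 16 macrophage and myeloid markers rose by day 7, with a summed level of 635 to 752 counts-per-million (CPM) in the controls and 2206 to 3122 at day 7. All 8 proliferation markers also rose at day 7, and 9 of 10 T and NK cell markers at day 28. Of 11 urothelial markers, 4 fell at day 7, and 4 fell and 1 rose at day 28. Day 7 replicate 3 stood apart in 6 erythroid markers (9612 CPM against 109 to 1098 in the other libraries), and day 28 replicate 3 in 9 smooth muscle markers (10410 CPM against 17140 to 42580). Day 28 replicate 3 also stood apart in 6 B and plasma cell markers (50.6 CPM against 0.348 to 3.43). The 7 skeletal muscle markers summed to 120 to 129 CPM in controls and 949 to 1664 at day 7, where 3 rose and 1 fell. Smooth muscle and urothelial markers were present in every library. In whole tissue, fewer cells of a type and less RNA per cell cannot be told apart. The part of these marker changes in the isoform changes below was not tested.

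The deposited isoform counts held most of the counts of their genes. Over the 12 libraries the isoform count was 90.7% of the gene count at the median, with an upper quartile of 98.5%. It was at least 50% in 187 members, at least 95% in 77 and under 50% in 13. The isoform was as long as the whole exonic gene model in 19 members, and its median length was 82.4% of that model (range 20.8% to 100%). Set against the most counted coding isoform of the same gene in the 192 members that had one, the isoform count had a median ratio of 0.933 (range 0.233 to 2.39), and it was above 1 in 57. The counts of a gene's isoforms therefore sum to more than the gene count, and a read in a shared exon was counted for every isoform that holds it.

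How many reads could come from the non-coding isoform alone was bounded by the gene count that lies outside the top coding isoform. That bound was 2.02% of the gene count at the median of 192 members, at most 5% in 138, and 59.8% at its highest. For most members, almost every read counted for the isoform could equally have come from a coding transcript. The 8 Ensembl members had no coding row, and each lay on the same strand as another gene's row, such as Wdfy3, Filip1 or Atp1b1. Whether the same reads were counted under both was not tested. Another gene row overlapped 85 members, 32 of them on the same strand, and no source used here says if reads were assigned by strand.

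**Figure D1:**
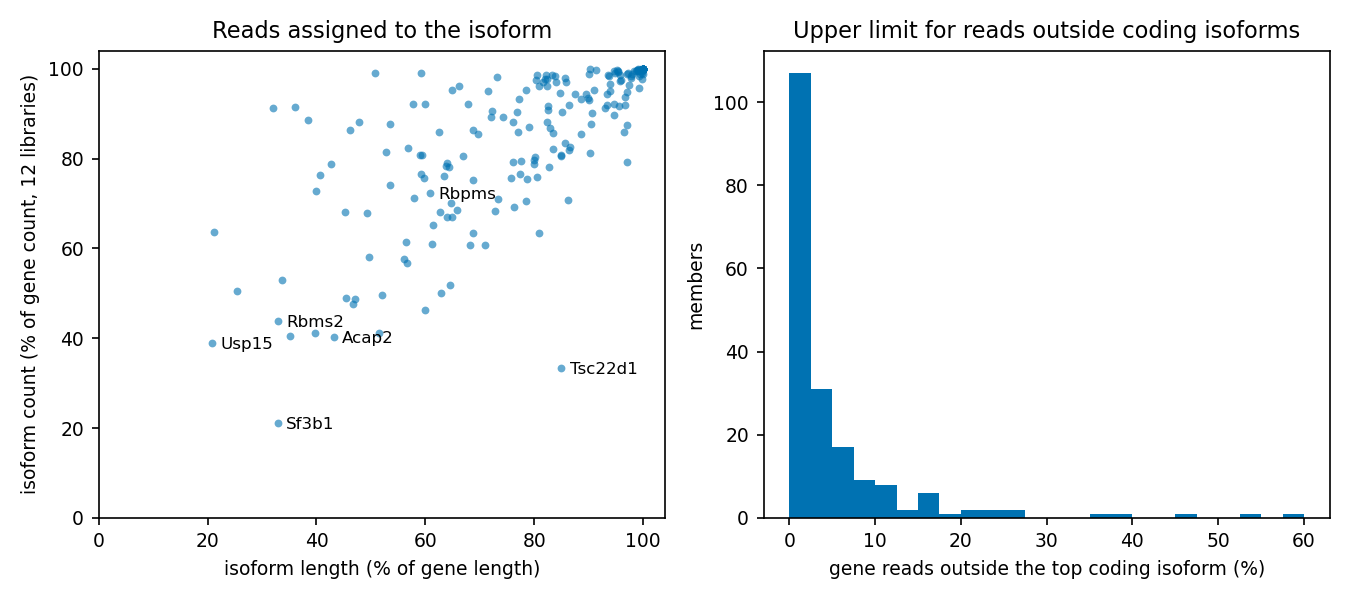
Left, isoform count as a percent of the gene count over all 12 libraries (vertical axis) against isoform length as a percent of the gene's exonic length (horizontal axis), 1 point for each of the 200 members. Right, number of members (vertical axis) by the percent of gene counts outside the top coding isoform (192 members). On the left most points lie near the top, with a median of 90.7%, and on the right most members lie near 0, with a median of 2.02%.

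The most counted member was the isoform of Son, a nuclear speckle protein needed for splicing. It was followed by Atp2a2 (the SERCA2 calcium pump that refills muscle calcium stores), Eif4a2 (an RNA helicase of translation initiation), Sesn3 (a stress-induced inhibitor of mTORC1 signalling), Hnrnpu (a nuclear RNA-binding protein), Wdr26, Tet3 (a DNA demethylase), Setd2 (a histone methyltransferase), ENSRNOG00000061121.2 and Ahr (the aryl hydrocarbon receptor). Per length, the deposited TPM in controls was 208 ± 22.2 for Eif4a2, 128 ± 6.69 for Atp2a2 and 58.2 ± 2.63 for Son (SD, n = 3), so the order by count was not the order per length. ENSRNOG00000043348.3, chosen after its value was seen, had the highest TPM of the members at 219 ± 22.8. It overlaps Rpl39 on the same strand, which holds 87.6% as many counts. Whether reads of Rpl39 were counted for this isoform was not tested.

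In the controls the isoform count equalled the gene count in 20 members, with the tie including Vps16, Sh3yl1, ENSRNOG00000002934.7, ENSRNOG00000011521.8 and Sipa1. An isoform as long as the whole gene model, as in 19 members, takes in every read of its gene whichever isoform made it. Such a share therefore need not measure how much the non-coding isoform was used. The lowest control shares were 21.0% in Sf3b1 (a core subunit of the U2 splicing particle), 36.9% in Tsc22d1 (a leucine-zipper regulator of transcription), 39.3% in Usp15 (a deubiquitinase), 41.5% in Acap2 and 42.2% in Rbms2. Sf3b1 kept a share of 20.4% ± 0.799 at day 7, 22.1% ± 1.43 at day 14 and 21.2% ± 1.20 at day 28 (SD, n = 3), beside 21.0% ± 0.939 in controls.

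Day 7 was compared with control to see how the isoforms stood in the first week after injury. At an adjusted p under 0.05 (edgeR's quasi-likelihood test with Benjamini-Hochberg adjustment over 3896 transcripts), 13 isoforms rose and 32 fell. Of all transcripts tested 18.2% were called (6.78% up and 11.4% down), against 45 of the 200 members, and the median log2 change of the members was -0.08. The direction of that split depended on the scaling. With the scaling factors of the gene table, used here because most counts lie there, 13 rose and 32 fell. Factors from the transcript table alone gave 30 up and 10 down with a median of 0.11. DESeq2, which took its size factors from the transcript table too, gave 33 up and 10 down. Leaving out control replicate 1, 2 or 3 lowered the count of 45 to 18, 23 or 21, and leaving out day 7 replicate 2 or 3 lowered it to 21 or 23. All 3 day 7 libraries lay above all controls in 31 members and below them in 68, beside 13.1% and 25.8% of all transcripts tested. The share called was 22.5% of the members, 19.6% of 891 other non-coding isoforms of protein-coding genes and 17.4% of 2805 transcripts of non-coding genes; these shares were not tested against each other.

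The largest rise was that of Fyb, an adaptor protein of T cells and myeloid cells, at chr2:55834904-55983805 (rn6). Its isoform stood at 7.55, 11.7 and 7.96 CPM in the controls and at 31.2, 30.0 and 29.5 at day 7. All day 7 libraries lay far above the controls, a log2 change of 1.74 ± 0.24 (SE, adjusted p = 0.000374, edgeR). Cp, which encodes the copper-carrying ferroxidase ceruloplasmin (chr2:104744249-104803034), went from 21.4, 15.7 and 21.5 CPM to 66.4, 54.6 and 46.5. The groups did not overlap, and the log2 change was 1.51 ± 0.29 (adjusted p = 0.00328, edgeR). Cp overlaps Hps3 on the opposite strand, which holds 44.7% as many counts.

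Elk3, an ETS-family transcription factor (chr7:34086213-34149601), rose from 39.9, 47.4 and 38.0 CPM to 91.2, 88.0 and 87.2 (1.09 ± 0.15, adjusted p = 0.000333, edgeR). It overlaps Cdk17 on the opposite strand, at 44.4% as many counts. Sipa1, a GTPase-activating protein of Rap1 (chr1:221006305-221018820), rose from 25.0, 32.9 and 28.0 CPM to 55.4, 59.3 and 66.7 (1.08 ± 0.16, adjusted p = 0.000564). In both genes every day 7 library was above every control. The other calls among the 6 largest rises were lost when some single libraries were left out. Pi16, a secreted protein abundant in a class of fibroblasts (chr20:6923176-6932786), stood at 93.1, 80.1 and 116 CPM in controls and 327, 195 and 210 at day 7 (1.34 ± 0.37, adjusted p = 0.0218). Its call was lost without any 1 of the controls or without day 7 replicate 1 (adjusted p 0.0512 to 0.0895). Rbm3, a cold-induced RNA-binding protein (chrX:15098880-15102344), went from 38.6, 41.7 and 49.9 CPM to 83.6, 86.3 and 95.3 (1.03 ± 0.30, adjusted p = 0.0281). The Rbm3 call was lost without any 1 of the controls, day 7 replicate 2 or day 7 replicate 3 (adjusted p 0.0634 to 0.106). Its log2 change stayed between 0.95 and 1.23 over all alternatives.

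The deepest fall was that of Art3, a member of the ADP-ribosyltransferase family (chr14:17143037-17225389). It stood at 71.2, 58.7 and 64.2 CPM in controls and at 24.7, 8.03 and 7.38 at day 7. The groups were apart, with day 7 replicate 1 above the other two, and the log2 change was -2.27 ± 0.47 (adjusted p = 0.00526, edgeR). Art3 overlaps Cxcl10 on the opposite strand, at 46.1% as many counts. Prom2, a prominin of epithelial membrane protrusions (chr3:120087633-120107495), fell from 74.5, 69.4 and 71.1 CPM to 37.6, 33.9 and 43.0 (-0.91 ± 0.18, adjusted p = 0.00398). Strbp, an RNA-binding protein (chr3:21817680-21956988), fell from 76.8, 65.4 and 71.6 CPM to 48.4, 40.0 and 39.7 (-0.74 ± 0.11, adjusted p = 0.000898). Neither of these groups overlapped. Beside the fall of Prom2, the 11 urothelial markers summed to 9090 to 9608 CPM in controls and 6013 to 7493 at day 7.

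Capn13 (a calpain protease), Cyp27a1 (a mitochondrial sterol hydroxylase) and Adamtsl4 (a protein of fibrillin microfibrils) completed the 6 largest falls. Each of these calls was lost when some single library was left out. Capn13 (chr6:24579590-24676536) stood at 43.2, 42.2 and 38.1 CPM in controls and 26.0, 15.05 and 18.7 at day 7 (-1.05 ± 0.25, adjusted p = 0.0124, edgeR), and at 0.055 without day 7 replicate 2. Cyp27a1 (chr9:81968285-81998213) stood at 50.5, 30.3 and 39.4 against 28.7, 21.96 and 15.1 CPM (-0.87 ± 0.22, adjusted p = 0.0169), and its call was lost without control replicate 1, control replicate 3 or day 7 replicate 3 (adjusted p 0.0507 to 0.0831). The groups were separate in both, though closest in Cyp27a1. Adamtsl4 (chr2:197803572-197815058) stood at 110, 93.3 and 97.1 against 75.2, 54.3 and 52.0 CPM (-0.73 ± 0.19, adjusted p = 0.0188). Its call was lost without control replicate 1 or 3 and without day 7 replicate 2 or 3 (adjusted p 0.0565 to 0.0757), and under DESeq2 or the transcript table's scaling.

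Day 14 had the fewest calls of the 3 days. The 4 called isoforms all rose, against 2.18% of all transcripts tested (1.33% up and 0.847% down), and the median log2 change of the 200 was 0.06. They were Fyb, Helz2, Arrdc3 and Myo5c. No isoform was called without any 1 of the controls, 2 were called without day 14 replicate 2 and 1 without day 14 replicate 3, and 29 members had an unadjusted p under 0.05, beside 14.1% of all transcripts tested. All 3 day 14 libraries lay above the controls in 39 members and below them in 18, beside 8.21% and 13.8% of all transcripts. At day 14, 8 of the 16 macrophage and myeloid markers rose, with sums of 1111 to 2151 CPM.

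The isoform of Fyb stood at 17.9, 19.2 and 33.8 CPM at day 14, above all controls (1.38 ± 0.24, adjusted p = 0.0129, edgeR). Without any 1 of the controls its adjusted p was 0.0574 to 0.0722, and over all alternatives it lay between 2.12e-15 and 0.0722. Myo5c, a class V myosin of secretory epithelia (chr8:82171296-82248109), went from 31.7, 30.9 and 30.1 CPM to 62.9, 53.3 and 56.6 (0.90 ± 0.19, adjusted p = 0.0239), with the groups far apart. Its day 14 call was lost without any 1 of the controls, day 14 replicate 1 or day 14 replicate 3 (adjusted p 0.058 to 0.1). Arrdc3, an arrestin-domain protein that sends membrane receptors to degradation (chr2:8732907-8745445), went from 61.6, 39.4 and 59.9 CPM to 85.6, 112 and 106 (0.92 ± 0.19, adjusted p = 0.025), and lost the call without any 1 of the controls, day 14 replicate 2 or day 14 replicate 3 (adjusted p 0.0628 to 0.115). Helz2, an interferon-induced helicase (chr3:176730024-176744382), stood at 21.8, 28.6 and 25.1 CPM in controls and 29.7, 84.1 and 64.5 at day 14. Day 14 replicate 1 of Helz2 lay just above the controls and the other two far above. The isoform was called (1.24 ± 0.29, adjusted p = 0.0388) while the gene row was not (adjusted p = 0.0596), and the difference between them was not itself called. The Helz2 call was lost without any 1 of the controls, day 14 replicate 2, day 14 replicate 3 or day 28 replicate 2 (adjusted p 0.0525 to 0.188).

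At day 28, 28 isoforms rose and 13 fell relative to control, 41 of 200 beside 13.7% of all transcripts tested (6.57% up and 7.14% down), with a median log2 change of 0.02. The split was 34 up and 8 down with the transcript table's scaling and 36 up and 8 down with DESeq2, but 28 up and 20 down with the replicate number as a block and 26 up and 20 down without an expression filter. Leaving out control replicate 1 or 3 lowered the count to 27 or 25, and leaving out day 28 replicate 3 to 25. All 3 day 28 libraries lay above all controls in 58 members and below them in 42, beside 14.4% and 21.7% of all transcripts.

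Fyb again rose most, to 45.7, 66.5 and 69.5 CPM at day 28 (2.74 ± 0.25, adjusted p = 3.66e-05, edgeR). Every library was above every control, beside macrophage and myeloid marker sums of 1957 to 2976 CPM and T and NK cell marker sums of 228 to 316 against 77.5 to 84.6 in controls. The isoform recorded under ENSRNOG00000002934.7 (chr13:82738252-82745761), which lies on the strand of Atp1b1 (a sodium pump subunit, 276% as many counts), stood at 14.8, 19.2 and 11.5 CPM in controls and 78.6, 60.4 and 67.7 at day 28 (2.19 ± 0.38, adjusted p = 0.00161). Cp stood at 48.3, 69.4 and 74.6 CPM, again above all controls (1.71 ± 0.29, adjusted p = 0.00145). Elk3, at 61.9, 76.2 and 71.8 CPM, and Sipa1, at 36.4, 55.8 and 52.2, were also called at day 28 (0.74 ± 0.15, adjusted p = 0.00408, and 0.75 ± 0.16, adjusted p = 0.00597).

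Myo5c, Ikbke and Clmn rose at day 28 after lying near or below control at day 7. The isoform of Myo5c stood at 100, 63.4 and 86.6 CPM (1.43 ± 0.19, adjusted p = 0.000224, edgeR). Ikbke, a kinase of the innate interferon response (chr13:48031325-48056394), stood at 49.9, 42.0 and 42.5 CPM in controls, 35.5, 24.2 and 27.7 at day 7, 53.1, 44.2 and 45.7 at day 14 and 87.2, 85.9 and 123.4 at day 28. The day 28 libraries were all above the rest (1.14 ± 0.16, adjusted p = 0.000509). Clmn, an actin-binding membrane protein (chr6:128473592-128567267), stood at 34.8, 30.6 and 28.3 CPM in controls and 55.1, 52.4 and 75.8 at day 28 (0.97 ± 0.15, adjusted p = 0.000689).

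Among the falls at day 28, Rap1gap, a GTPase-activating protein of Rap1 like Sipa1 (chr5:156008868-156074350), stood at 82.6, 59.6 and 71.9 CPM in controls and 25.0, 23.9 and 26.2 at day 28. The groups were widely separate (-1.51 ± 0.16, adjusted p = 5.23e-05, edgeR). Prom2 stood at 33.9, 18.9 and 30.7 CPM (-1.37 ± 0.18, adjusted p = 0.000269), beside urothelial marker sums of 7302 to 9812 CPM. Dhdds, an enzyme of dolichol synthesis (chr5:152200681-152227669), fell from 40.2, 45.6 and 41.7 CPM to 23.4, 23.6 and 24.5 (-0.83 ± 0.11, adjusted p = 0.000224). Neither group overlapped. Dnajb2, a co-chaperone of Hsp70 (chr9:82436453-82444669), fell from 50.3, 46.5 and 44.3 CPM to 33.2, 26.4 and 26.4 (-0.72 ± 0.12, adjusted p = 0.00161), and Strbp stood at 47.2, 43.4 and 43.1 (-0.68 ± 0.11, adjusted p = 0.00145). Adamtsl4 was at 82.4, 67.6 and 42.6 CPM (-0.64 ± 0.19, adjusted p = 0.04), a call lost without any 1 of the controls, day 28 replicate 2 or day 28 replicate 3 (adjusted p 0.0751 to 0.14). This Adamtsl4 call was also lost with only the compared groups fitted, with the transcript table's scaling and under DESeq2.

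**Figure D2:**
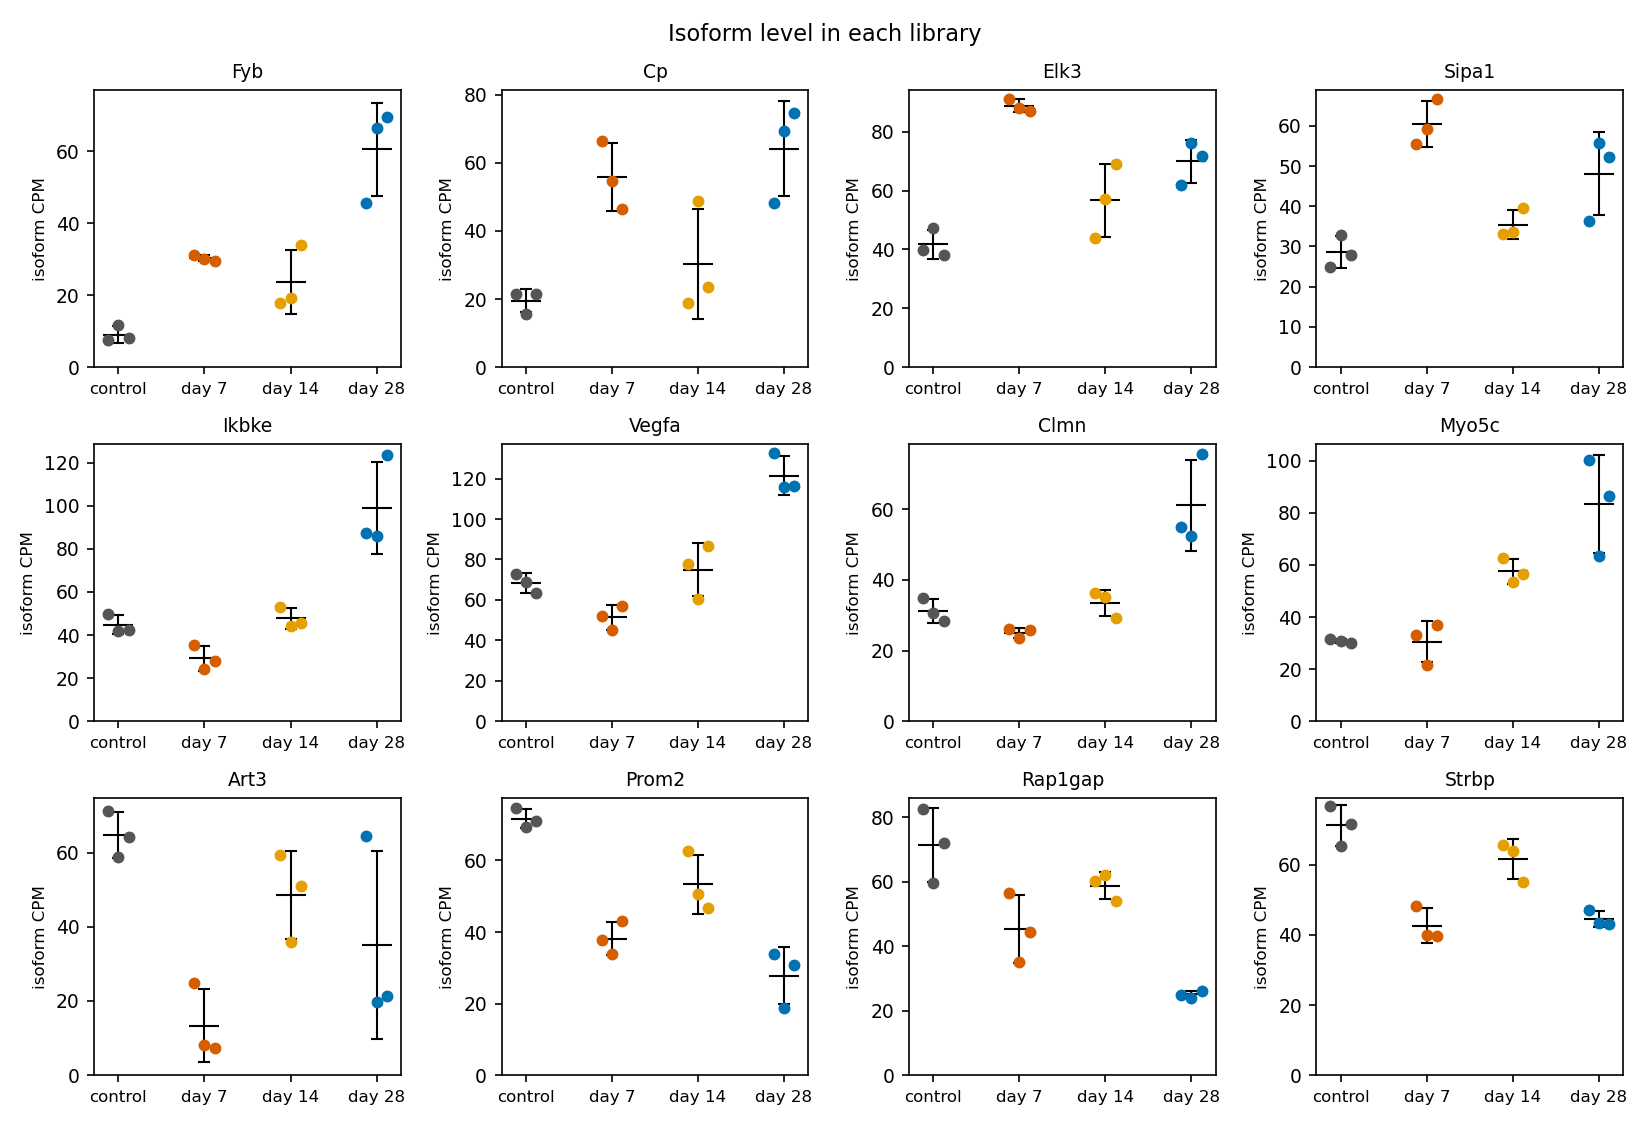
Isoform level in CPM (vertical axes, each from 0) in each of the 12 libraries by group, for 12 members named in the text; points are libraries, and the black lines give the mean and SD of 3 libraries. Fyb and Cp lie above control at days 7 and 28, Ikbke and Vegfa lie lowest at day 7 and highest at day 28, and Rap1gap lies lowest at day 28.

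Day 28 was set directly against day 7, so that changes called at only 1 of the times could be tested. In that comparison 23 isoforms were higher at day 28 and 11 lower, 34 of 200 beside 10.4% of all transcripts (6.11% up and 4.29% down). This split turned to 11 higher and 15 lower with the transcript table's scaling and 11 higher and 16 lower with DESeq2, with medians of 0.10 by the gene table's scaling and -0.01 by the transcript table's. Leaving out day 7 replicate 2 or 3 lowered the count to 21 or 17, leaving out day 28 replicate 3 to 19, and fitting only those groups to 22. All day 28 libraries lay above all day 7 libraries in 63 members and below them in 22, beside 17.1% and 10.3% of all transcripts. Ikbke was higher at day 28 by 1.76 ± 0.17 (adjusted p = 4.05e-05, edgeR), Myo5c by 1.45 ± 0.19 (adjusted p = 0.000308) and Clmn by 1.29 ± 0.15 (adjusted p = 0.000126). At day 7 alone Ikbke lay below control (-0.62 ± 0.16, adjusted p = 0.0186), a call lost without control replicate 1, day 7 replicate 2 or day 7 replicate 3 (adjusted p 0.0632 to 0.0785) and under DESeq2 or the transcript table's scaling.

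Vegfa, the main growth factor of blood vessel formation (chr9:17340341-17355681), showed the same order of times. Its isoform stood at 73.0, 68.8 and 63.2 CPM in controls, 52.3, 44.9 and 57.1 at day 7, 77.7, 60.6 and 86.4 at day 14 and 132, 116 and 116 at day 28. All day 28 libraries were above all others, a log2 change of 0.83 ± 0.13 from control (adjusted p = 0.00107, edgeR) and 1.24 ± 0.14 from day 7 (adjusted p = 7.66e-05). The day 7 value of -0.41 ± 0.13 (adjusted p = 0.0472) lost its call without any 1 of the controls, the day 28 libraries, day 7 replicates 1 and 2 or day 14 replicate 1 (adjusted p 0.0509 to 0.162), and was -0.21 with DESeq2 (adjusted p = 0.494). Cyp27a1 was at 49.3, 50.8 and 52.9 CPM at day 28, 1.22 ± 0.23 above day 7 (adjusted p = 0.00448), while Rap1gap was 0.86 ± 0.16 below it (adjusted p = 0.00448).

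Each isoform was then set beside the row of its own gene, fitted the same way over 17687 genes. The gene rows gave 48 calls at day 7 (26.2% of all genes), 3 at day 14 (2.45%), 49 at day 28 (18.6%) and 42 for day 28 against day 7 (18.7%). The log2 changes of isoform and gene differed by a median of 0.009, 0.009, 0.008 and 0.008 in these comparisons. They were within 0.05 of each other in 181, 184, 182 and 180 of the 200 members, and more than 0.1 apart in 4, 5, 6 and 4. Both were called in 43, 3, 41 and 33 members, the isoform alone in 2, 1, 0 and 1, and the gene alone in 5, 0, 8 and 9, and none was called in opposite directions. The largest gaps were 0.41 in Tsc22d1 at day 7, 0.18 and 0.14 in Rbm3 at days 14 and 28, and 0.41 in Tsc22d1 between days 28 and 7. The isoform counts are a part of the gene counts, so these values are not independent of each other. Among the gene rows of the members, the day 7 count was 25, 28 and 27 without control replicates 1, 2 and 3, 22 without day 7 replicate 2 and 26 without day 7 replicate 3. At day 14 it was 0 without any 1 of the controls and 1 without day 14 replicate 3, beside 7 by DESeq2. At day 28 it was 29, 31 and 29 without control replicates 1, 2 and 3 and 26 without day 28 replicate 3, and for day 28 against day 7 it was 26 and 27 without day 7 replicates 2 and 3.

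**Figure D3:**
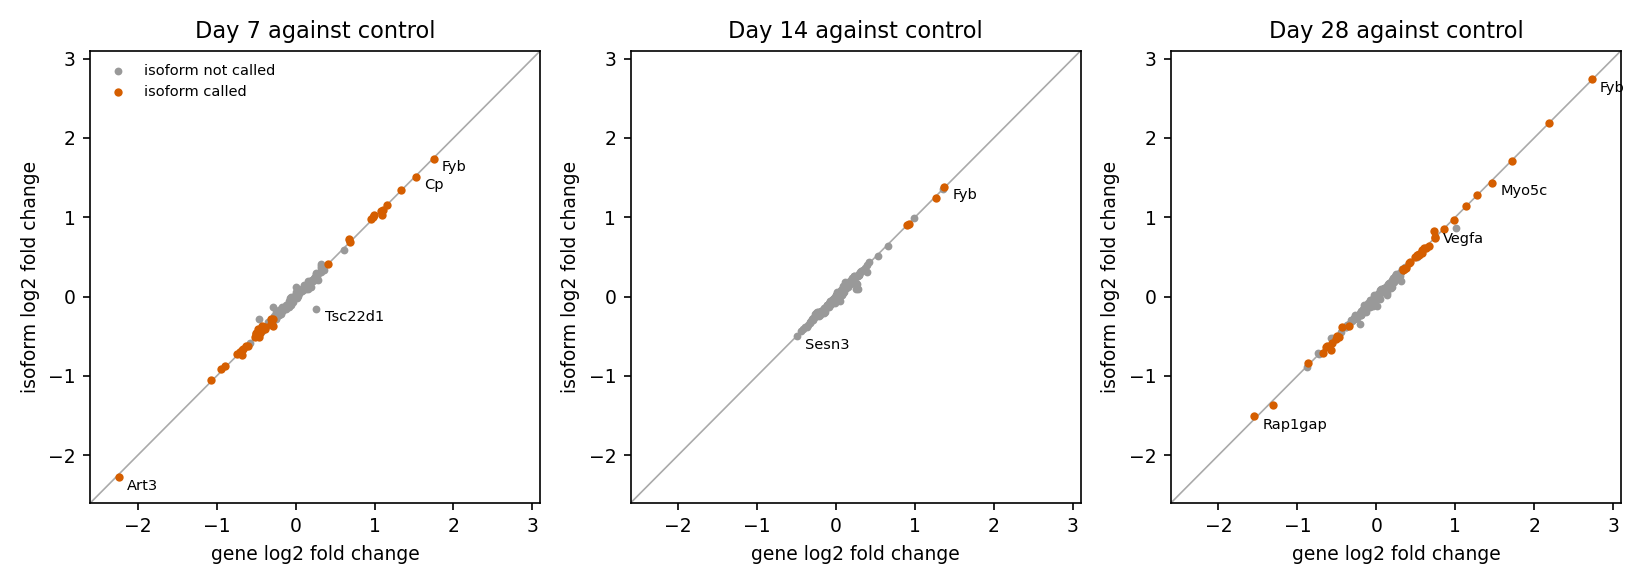
Log2 change of the isoform (vertical axis) against log2 change of its gene row (horizontal axis) at days 7, 14 and 28 relative to control, 1 point for each of the 200 members, with the line of equal change and called isoforms in orange. Nearly all points lie on the line; Tsc22d1 at day 7 is 0.41 away from it.

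Whether the isoform's share of its gene count moved was tested with the gene count as an offset. This test called 0 of 200 members in each of the 4 comparisons (edgeR's quasi-likelihood test), as it called 0% of the 1062 isoforms tested. In 20 members the isoform count equalled the gene count in controls, so their shares had no room to rise. In 77 members the share was at least 95% over the 12 libraries, which left little room. For those members the 0 calls do not decide whether the isoform's use rose. The offset also treats the gene count as separate from the isoform count, though the isoform's reads are a part of it. This can overstate the noise of a share, most where the share is high, and the median share was 90.7%. The 0 calls of this test therefore do not decide whether shares stayed the same in other members with a high share. At an unadjusted p under 0.05 there were 6, 8, 7 and 13 members, beside 4.9%, 2.64%, 3.67% and 5.18% of all isoforms tested, and limma on log2 ratios called 1 member at day 7 (0.659% of all isoforms) and 0 in the others (0%, 0% and 0.282%). A further test, added after that result was seen, took the reads inside and outside the isoform as a pair of counts from each library, with the library as a block. This further test needed at least 10 reads inside and 10 outside the isoform over all libraries, which left 180 members. It called 3 of 180 members at day 7 (0.971% of 927 isoforms), 0 at day 14 (0%, edgeR, 13 at an unadjusted p under 0.05), 1 at day 28 (0.108%) and 2 between days 28 and 7 (0.755%). The members called were Rbpms, Tsc22d1 and Bclaf1 at day 7, Vegfa at day 28, and Rbpms and Tsc22d1 between days 28 and 7. In that test the day 7 count was 1 without control replicate 1 or 2 or day 7 replicate 2 or 3, and 2 without control replicate 3, day 7 replicate 1, day 14 replicate 2 or day 28 replicate 1 or 2.

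Rbpms, an RNA-binding protein that controls splicing in smooth muscle (chr16:61954569-62109998), had the change that held with any library left out. Its isoform took 70.7%, 67.6% and 69.7% of the gene count in controls, 79.1%, 77.4% and 80.1% at day 7, 68.2%, 71.8% and 74.2% at day 14 and 71.0%, 72.2% and 72.8% at day 28. The day 7 libraries lay above all 9 others. The log2 odds ratio of reads inside against outside the isoform was 0.72 ± 0.10 at day 7 (SE, adjusted p = 0.000436, edgeR, and 0.000127 to 0.00766 with any 1 library left out). The offset test gave an adjusted p of 0.0554 and limma 0.0401. Reads outside the isoform went from 88.0, 105 and 91.1 CPM to 60.3, 41.2 and 39.3, while the isoform stood at 212, 218 and 210 in controls and 228, 141 and 158 at day 7. Among the gene's 5 coding rows, the 2312-base XM_006253238.3 went from 136 ± 6.49 to 92.4 ± 21.3 CPM, whereas the 1060-base NM_001271244.1 went from 129 ± 4.08 to 116 ± 20.2 (SD, n = 3). In the mean, the 1026-base, 996-base and 5842-base coding rows went from 103 to 89.5, 63.8 to 57.65 and 81.4 to 68.0 CPM. The member went from 213 to 176 CPM. Whether the non-coding isoform moved apart from these coding rows was not tested. Between days 28 and 7 the log2 odds ratio was -0.54 ± 0.10 (adjusted p = 0.0192), lost without day 7 replicate 1 or 3 or any 1 of the day 28 libraries (0.0547 to 0.108). Of 9 smooth muscle markers 4 rose and 3 fell at day 7, with overlapping sums of 24320 to 26970 CPM in controls and 25780 to 42580 at day 7, and their part was not tested.

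Tsc22d1 (chr15:58554358-58658156) moved the other way. The share of its isoform was 37.5%, 40.9% and 32.7% in controls, 26.7%, 27.6% and 29.2% at day 7, 36.3%, 32.1% and 31.8% at day 14 and 42.0%, 32.9% and 35.3% at day 28. Day 7 lay below every other library, with a log2 odds ratio of -0.61 ± 0.13 from control (adjusted p = 0.0318, edgeR) and 0.59 ± 0.13 for day 28 over day 7 (adjusted p = 0.0377). The first was lost without control replicate 1, control replicate 2 or any 1 of the day 7 libraries (adjusted p 0.0945 to 0.18), and the second without any 1 of the day 7 libraries, day 14 replicate 2, day 28 replicate 1 or day 28 replicate 3 (up to 0.238). The isoform itself was not called (-0.15 ± 0.14, adjusted p = 0.482), at 87.0, 91.1 and 79.2 CPM in controls and 88.1, 72.4 and 70.9 at day 7, while the reads outside it went from 145, 132 and 163 CPM to 243, 190 and 172. Short and long rows of the gene went different ways: the 1675-base coding NM_013043.2 went from 144 ± 16.3 to 200 ± 36.7 CPM, and the 15075-base coding XM_006252340.3 from 88.5 ± 6.31 to 78.6 ± 9.36, beside 85.8 ± 6.04 to 77.1 ± 9.55 for the 14276-base member.

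**Figure D4:**
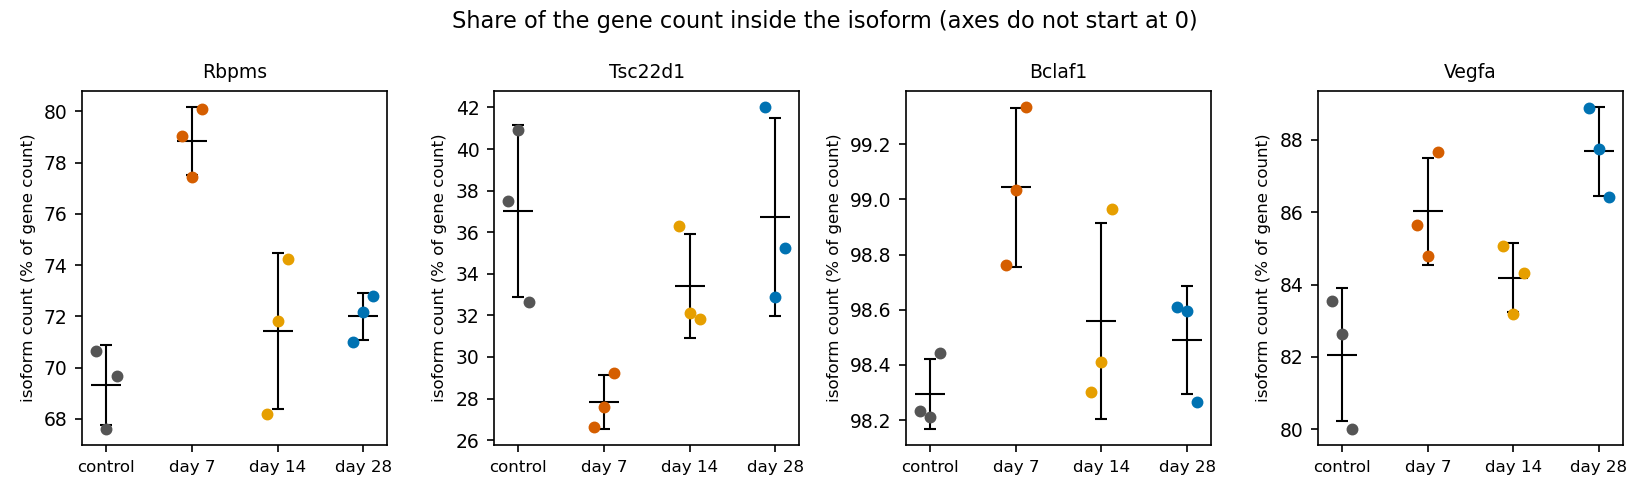
Isoform count as a percent of the gene count in each of the 12 libraries for Rbpms, Tsc22d1, Bclaf1 and Vegfa, with the mean and SD of 3 libraries in black; the axes do not start at 0. Day 7 is highest for Rbpms (77.4% to 80.1%) and lowest for Tsc22d1 (26.7% to 29.2%).

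**Figure D5:**
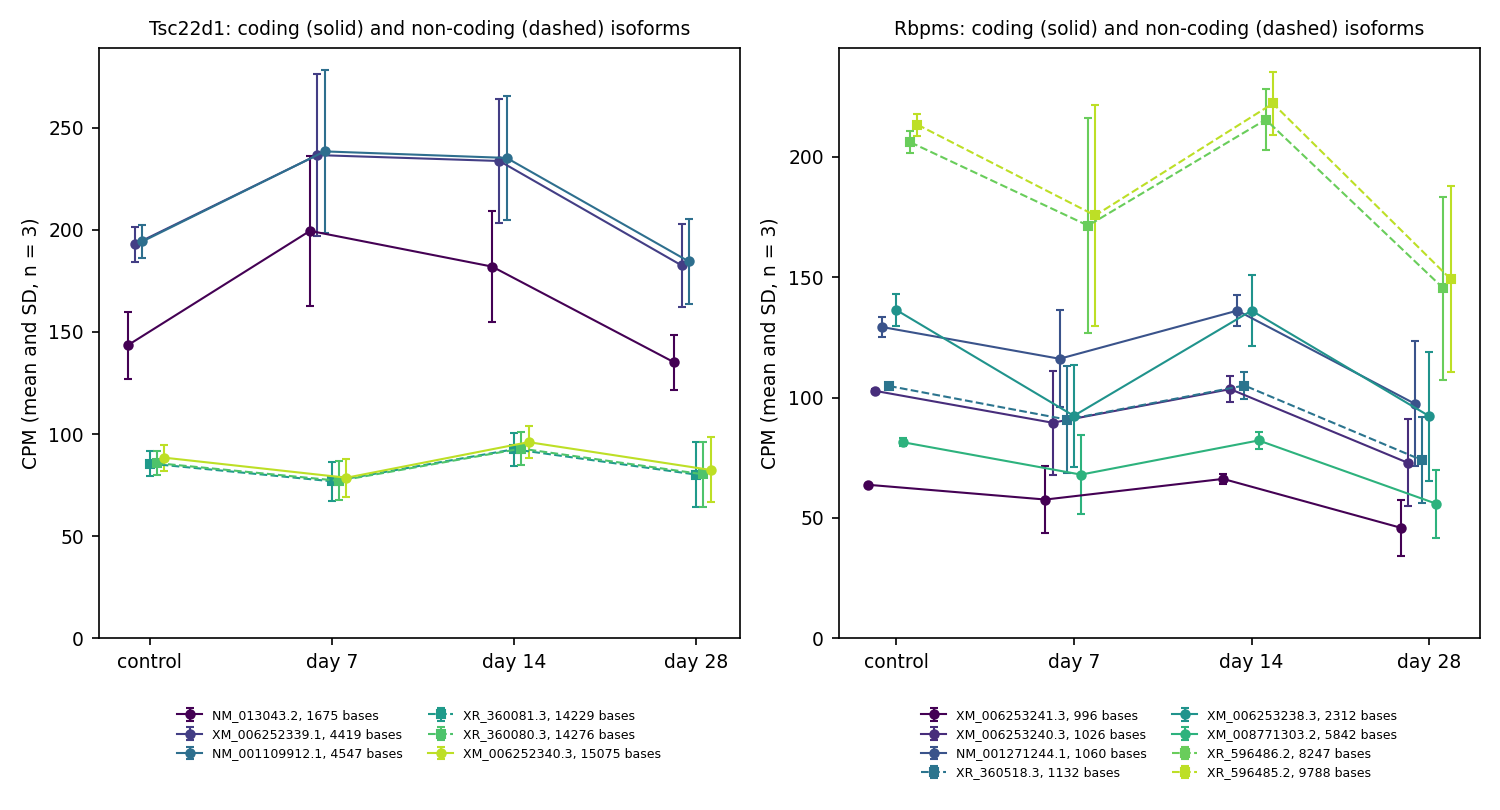
Level of every annotated transcript row of Rbpms and Tsc22d1 in CPM at each group, as means with SD over 3 libraries, coding and non-coding rows marked. The shortest Tsc22d1 coding row goes from 144 to 200 at day 7 while the member goes from 85.8 to 77.1, and the Rbpms row of 2312 bases goes from 136 to 92.4.

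RefSeq lists more than 1 start for Tsc22d1, and the 250 bases before each are printed because its transcript rows moved apart (GRCr8, plus strand, 5′ to 3′). The starts lie 97223 bases apart. Capitals mark the GC-box letters CCCGCCC or their complement GGGCGGG, searched on both strands; a match is a description of the letters only.
Tsc22d1 upstream start, chr15:58159528-58159777: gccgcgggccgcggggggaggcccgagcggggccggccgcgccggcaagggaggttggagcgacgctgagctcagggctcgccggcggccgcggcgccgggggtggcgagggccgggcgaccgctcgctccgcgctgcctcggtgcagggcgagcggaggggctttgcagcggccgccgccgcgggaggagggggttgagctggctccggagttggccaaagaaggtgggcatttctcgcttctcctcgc
Tsc22d1 downstream start, chr15:58256751-58257000: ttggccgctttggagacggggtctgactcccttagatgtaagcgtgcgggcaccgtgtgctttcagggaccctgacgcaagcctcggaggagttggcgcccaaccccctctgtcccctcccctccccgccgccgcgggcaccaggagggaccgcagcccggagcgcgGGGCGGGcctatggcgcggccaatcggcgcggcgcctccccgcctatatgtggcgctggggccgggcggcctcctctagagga
The upstream window held 0 matches and the downstream window 1. Of 171 windows of 157 member genes, 45% held the letters, beside 21% of all 33469 windows in the table. At least 2 starts were listed for 11 member genes (7.01%), beside 11.8% of all 27457 genes. Which start each deposited transcript uses was not analysed here.

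Bclaf1, a nuclear protein of messenger RNA processing (chr1:15799753-15828838), and Vegfa had smaller shifts in percentage points, though not in log2 odds ratio. In Bclaf1 the isoform's share was 98.2%, 98.2% and 98.4% in controls and 98.8%, 99.03% and 99.3% at day 7, so that reads outside it went from 3.34, 3.68 and 3.36 CPM to 2.09, 1.98 and 1.27. The groups did not overlap (log2 odds ratio 0.86 ± 0.20, adjusted p = 0.0438, edgeR), but the call was lost without any 1 of the controls, day 7 replicate 2 or 3, day 14 replicate 2 or day 28 replicate 1 or 2 (adjusted p up to 0.335). In Vegfa the share was 83.5%, 82.6% and 80.0% in controls and 88.9%, 87.7% and 86.4% at day 28 (0.64 ± 0.12, adjusted p = 0.042), lost without control replicate 3, any 1 of the day 14 libraries, day 28 replicate 1 or day 28 replicate 2 (up to 0.368). At day 7 the Vegfa share was 85.6%, 84.8% and 87.7%, also above the controls, while the level of the isoform was below them. Coding rows of both genes moved with the members. The Vegfa coding NM_031836.3 went from 70.8 ± 4.88 CPM in controls to 125 ± 10.0 at day 28, beside 68.3 ± 4.91 to 122 ± 9.52 for the member. The Bclaf1 coding XM_006227652.3 went from 198 ± 13.4 CPM to 185 ± 18.3 at day 7, beside 200 ± 13.4 to 186 ± 18.4 for the member (SD, n = 3). Whether the non-coding isoforms of these genes, or that of Tsc22d1, moved apart from their coding rows was not tested.

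In 21 members the gene had a single coding row, and the gene count outside it could be read directly. The largest such part was in Prpf4b, a kinase of the splicing machinery, at 19.1%, 21.2% and 22.5% of the gene count in controls, 16.5%, 19.0% and 18.6% at day 7, 21.6%, 21.1% and 19.5% at day 14 and 18.9%, 21.9% and 21.4% at day 28. Day 7 lay just below the controls, and days 14 and 28 overlapped them. It was 13.2% to 18.3% over the libraries in Mrpl51 (a mitochondrial ribosomal protein, overlapped by Ncapd2 at 26.8% as many counts), 9.23% to 14.1% in Zc3h15, 8.98% to 12.2% in Suds3 (a subunit of the Sin3 corepressor) and 7.59% to 10.1% in Cd48 (a receptor of lymphocytes). Hectd3 and Epg5 had no read outside the coding row in any library. None of the 18 testable members was called in any comparison (0%, edgeR), with 2, 3, 2 and 2 at an unadjusted p under 0.05, beside 9.33%, 6.67%, 6.67% and 5.33% of the 75 genes tested. The members of this paragraph other than Prpf4b, Mrpl51 and Cd48 were chosen after their values were seen.

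By role, the largest group of members was that of splicing factors and nuclear RNA-binding proteins, with 15. At day 7, 1 rose (Rbm3) and 1 fell (Son), and at days 14 and 28 none passed the test. Over the whole list of 130 such genes, 2 gene rows rose and 10 fell at day 7, and 2 rose and 4 fell at day 28. Son stood at 589, 640 and 623 CPM in controls and 500, 515 and 503 at day 7 (-0.29 ± 0.09, adjusted p = 0.0316, edgeR), with the groups apart. Its call was lost without any 1 of the control or day 7 libraries, with adjusted p of 0.053 to 0.0997. The value was -0.09 with DESeq2 on the transcript table's size factors (adjusted p = 0.715, the highest over all alternatives). Hnrnpu stood at 263, 253 and 274 CPM in controls and 241, 286 and 287 at day 7, overlapping, and was not called at any day.

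The other groups were small and mostly unchanged in the test. Of 514 signalling gene rows 92 rose and 84 fell at day 7, and 73 rose and 58 fell at day 28. Of the 10 members on that list, Arhgap17 (a GTPase-activating protein) rose and Rap1gap fell at day 7, and Arhgap17 and Tyk2 (a kinase of cytokine receptors) rose and Rap1gap fell at day 28. The day 7 call of Rap1gap (-0.66 ± 0.16, adjusted p = 0.0115) was lost without control replicate 1 (0.0583), and that of Tyk2 at day 28 without control replicate 3 or day 28 replicate 3 (0.0549 to 0.0634). Arhgap17 stood at 31.0, 30.7 and 26.9 CPM in controls, 65.9, 60.0 and 52.2 at day 7 and 48.7, 48.7 and 40.6 at day 28, above all controls at both times (1.01 ± 0.13, adjusted p = 0.000215, edgeR, and 0.64 ± 0.13, adjusted p = 0.00475). Of 836 gene rows of membrane traffic and transport, 143 rose and 108 fell at day 7, and 108 rose and 62 fell at day 28. Of the 10 members on that list, 1 fell at day 7 (Atp2a2) and 3 rose at day 28 (Vps54, Ap3b1 and Abcc3). Each of these 3 calls was lost without single libraries: Vps54 without any 1 of the controls or day 28 replicate 1 or 2 (adjusted p 0.0774 to 0.0966), Ap3b1 without control replicate 2 or 3 or day 28 replicate 1 or 3 (0.0799 to 0.118), and Abcc3 without control replicate 1 or 3 or day 28 replicate 3 (0.0938 to 0.163). Atp2a2 went from 682, 656 and 616 CPM to 513, 482 and 501 at day 7 (-0.39 ± 0.12, adjusted p = 0.0363), apart from the controls. Its call was lost without any 1 of the controls, day 7 replicate 2 or day 7 replicate 3 (adjusted p 0.0695 to 0.117), and the value was -0.19 with DESeq2 (adjusted p = 0.51). The translation member, Eif4a2, fell at day 7 from 423, 340 and 376 CPM to 265, 292 and 273 (-0.45 ± 0.11, adjusted p = 0.00973, 0.0514 without control replicate 1). With DESeq2 its value was -0.26 (adjusted p = 0.275), and of 195 gene rows on its list 16 rose and 7 fell at day 7.

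Of 3 cell cycle members, Mcm4, a subunit of the replicative helicase, rose at day 7, from 25.5, 30.6 and 31.5 CPM to 32.1, 64.9 and 75.4. Day 7 replicate 1 lay just above the controls (0.98 ± 0.26, adjusted p = 0.0191, edgeR), and the call was lost without any 1 of the controls, day 7 replicate 2 or day 7 replicate 3 (adjusted p 0.0553 to 0.101). On the whole list 32 of 45 gene rows rose and 3 fell at day 7. Of 3 members on the immune list, Tlr3, a receptor for double-stranded RNA, rose at day 28 (0.51 on the log2 scale, adjusted p = 0.0297), a call lost without any 1 of the controls or day 28 replicate 2 or 3 (0.0677 to 0.124), while 159 of 297 gene rows of that list rose and 8 fell. Fyb, Ikbke and Helz2, called above and described there with immune roles, were not on that list, so its count leaves them out. Of 11 members of transcription and chromatin, 1 fell at day 7 (Zfp451, -0.37, adjusted p = 0.0487), and none was called at days 14 and 28, while 51 of 581 gene rows of the list rose and 60 fell at day 7 and 30 rose and 46 fell at day 28. The Zfp451 call was lost without any 1 of 10 libraries (adjusted p 0.0546 to 0.172), and its value was -0.18 with DESeq2 (0.476). Of 9 members of protein folding and degradation, Dnajc7 rose and Dnajb2 fell at day 28, beside 28 rises and 25 falls among 432 gene rows. The Dnajc7 call was lost without any 1 of the 12 libraries (adjusted p 0.0514 to 0.172). Outside these lists, Wdr26 rose at day 28 from 208, 213 and 210 CPM to 310, 285 and 258 (0.43 ± 0.09, adjusted p = 0.0064), and 136 members were on no list.

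The authors' deposited tables of differential non-coding transcripts list all 200 members. By their thresholds (a log2 fold change of 1 or more in either direction, with q under 0.05) 10 members were up and 1 down at day 7, 3 up and 0 down at day 14, and 6 up and 2 down at day 28. These shares compare with 10.9% of 5825, 3.55% of 4371 and 10% of 5530 transcripts listed in the authors' deposited tables. In the authors' deposited table Fyb had a log2 fold change of 1.94 at day 7, 1.47 at day 14 and 2.84 at day 28, and Art3 had -2.12 at day 7. The values in the authors' deposited tables were higher than those fitted here by a median of 0.20 at day 7, 0.07 at day 14 and 0.10 at day 28, and their sign was the same in 144, 176 and 173 of the 200 members. In the authors' deposited table for day 7 Son had a log2 fold change of -0.08 (q = 0.719), beside -0.29 here.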

How the data were processed

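Single reads of 50 bases were processed by the authors. HISAT2 2.1.0, HTSeq 0.11.2, bcl2fastq and the build rn6 are listed, without roles, per the submitters' processing notes. The deposited tables hold whole-number read counts per gene and per transcript, the deposited TPM, which equal count over the deposited Length, scaled to the same total in each library, and, per the file headers, the authors' log2 fold changes with their p-values and q-values for each day against control. No source used here says if reads were assigned by strand or how the authors scaled their fold changes.

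The members and gene lists were chosen with earlier results of these data known. Isoform and gene counts were fitted with edgeR 4.0.16 (quasi-likelihood, R 4.3.3) over all 12 libraries, 1 coefficient for each group, after a filter of about 10 counts in a group's worth of libraries and 15 in total. TMM scaling factors came from the gene table for both; CPM uses the same factors. P-values were adjusted by Benjamini-Hochberg over all 3896 transcripts or 17687 genes tested, and all 200 members passed the filter. The share test used the log gene count as offset over 1062 isoforms. Testing reads inside and outside the isoform, and reads outside the only coding row, was added after the share test's result was seen. limma 3.58.1 and DESeq2 1.42.0 served as alternatives. For isoforms DESeq2 took its size factors from the transcript table, so it was not independent of the alternative with that table's scaling. The scripts were tested on simulated data. Named members are the 10 with the highest counts, 5 of the 20 members tied at the highest control share (the last in order of count), the 5 lowest control shares, the 6 largest called rises and falls at each day with groups apart, every member with a called share, and up to 4 of each list by p; others are said to be chosen after their values were seen. Deviations of libraries with the same replicate number correlated at r of -0.04 to 0.19, over 0.1 in 6 of 18 pairs, against -0.26 to 0.13 and 1 of 36 for different numbers. The replicate numbers are not known to pair libraries, so the main fits used no pairing. A block by replicate number was fitted as an alternative. These correlations do not settle whether libraries with the same number share structure.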

Additional observations from a re-analysis of the deposited data

Results flagged for a closer look

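Listed here are the members named in the text that were called in a direct test of day 28 against day 7 (edgeR's quasi-likelihood test, adjusted p under 0.05). Their changes from control therefore differed between those times. They are a part of the 34 members called (23 higher and 11 lower), and the other called members are not listed. The lowest log2 difference over all 200 members was -1.16, in a member not listed. Both times share the same controls. Among the listed isoforms, the log2 difference of day 28 over day 7 was highest in Ikbke (1.76), Myo5c (1.45), Clmn (1.29), Vegfa (1.24), Cyp27a1 (1.22) and Fyb (1.00). It was 0.95 in Abcc3, 0.84 in Sh3yl1, 0.49 in Tlr3, 0.43 in Ahr, 0.41 in Prpf4b and 0.36 in Dnajc7. It was -0.86 in Rap1gap, -0.46 in Dhdds and -0.44 in Dnajb2. The Fyb call was lost without day 7 replicate 2 or 3 or day 28 replicate 3 (adjusted p 0.0511 to 0.0642), and the Ahr call without day 7 replicate 3 (0.054). Prpf4b lost its call without day 7 or day 28 replicates 1 or 3 (0.0546 to 0.0852), and Dhdds without day 7 replicate 3 or day 28 replicate 2 (0.0526 to 0.0911). Dnajb2 lost it without control, day 7 or day 28 replicates 2 or 3 (0.0501 to 0.16), Dnajc7 without any 1 of the day 7 and day 28 libraries or control replicates 2 or 3 (0.0547 to 0.162), and Tlr3 without any 1 of the controls and day 7 libraries, day 14 replicate 1 or day 28 replicates 2 or 3 (0.0516 to 0.162). The calls of Ahr, Prpf4b, Dnajc7 and Tlr3 were also lost with the transcript table's scaling and with DESeq2. Those of Dhdds, Dnajb2 and Dnajc7 were lost without an expression filter and with only the compared groups fitted.

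For the reads inside against outside the isoform, the log2 odds ratio of day 28 over day 7 was -0.54 in Rbpms and 0.59 in Tsc22d1, both called in the added test and not in the offset test.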

How the results depend on the processing

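The 69 called changes of named isoforms were each read under 20 alternative settings, giving 1380 values. None of these reversed, 256 lost the call, and 32 changes kept the call with any single library left out. The changes were chosen because they were called, and most settings only left out 1 library or raised the threshold. A reversal was therefore unlikely from the start. Without an expression filter 9 lost the call, with the transcript table's scaling 14, and with DESeq2, whose size factors also came from the transcript table, 15. With an absolute log2 change of at least 1 required, calls were 11 (day 7), 2 (day 14), 8 (day 28) and 9 (day 28 against day 7) for isoforms and 8, 1, 8 and 8 for gene rows. Isoform calls were 9 at day 14 without the filter and 22 for day 28 against day 7 with only those groups fitted; gene calls at day 14 were 7 with DESeq2. The share test gave 1 call at day 7 with a mean of at least 5 CPM, 1 with limma, and 3, 1 and 2 (day 7, day 28, day 28 against day 7) with reads inside and outside the isoform.

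Leaving out each library gave isoform calls of 18 to 47, 0 to 5, 25 to 45 and 17 to 37, gene calls of 22 to 53, 0 to 4, 26 to 50 and 26 to 47, and, over both share tests together, share calls of 0 to 3, 0 to 1, 0 to 3 and 0 to 2, in the same order (the offset test alone gave 0 to 1, 0, 0 and 0); calls outside the only coding row stayed at 0.

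The replicate numbers are not known to pair libraries: of 18 pairs with the same number 6 correlated above 0.1, against 1 of 36 with different numbers. With the replicate block, isoform calls were 46, 4, 48 and 42, gene calls 45, 2, 50 and 42, share calls 0, and calls from reads inside and outside the isoform 3, 0, 1 and 2. Shared reads limit all isoform values: at the median 2.02% of a gene's counts lay outside its top coding isoform.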
